A study of Homo sapiens with 24 samples.

Results

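PRT220, an inhibitor of PRMT5, was set directly against MS023, an inhibitor of the type I arginine methyltransferases, in MV4-11 cells. The comparison took the 3 libraries of each single-agent group, 6 of the 24 libraries in the series, and all 6 entered it. MV4-11 is an established human acute myeloid leukaemia line of monocytic character that carries an MLL fusion and a FLT3 internal duplication. Every group was labelled PRMT5 +/+. PRT220 was given at 3 nM for 3 days, and DMSO was the vehicle control at 3 days. The labels gave neither a dose nor a time for MS023, so the enzyme inhibited and the strength or length of the exposure cannot be told apart in this comparison. Gene and transcript levels were read from poly(A)-selected, unstranded RNA libraries.

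Arginine methyltransferases transfer methyl groups from S-adenosylmethionine to arginine side chains of histones, RNA-binding proteins and splicing factors. PRMT5, with its partner WDR77, makes symmetric dimethylarginine, among others on the Sm proteins that form the core of the spliceosome's small ribonucleoproteins. The type I enzymes, of which PRMT1 is the most active in most cells and CARM1 another, make asymmetric dimethylarginine on histones and on many of the same RNA-binding proteins.

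Total gene counts of the 6 libraries lay between 37346561 (MS023 B) and 46802905 (PRT220 A). One library stood apart from the other 5. The 9 genes whose symbols start with RRP, most of them ribosomal RNA processing factors, summed to 512 CPM (the count divided by the library total and multiplied by 1000000, here before scaling) in MS023 B and to between 43.2 and 50.2 CPM in the others. MS023 B also held 359 CPM of MT-CYB before scaling, against 11.4 to 24.7 CPM in the other 5. Low RRP levels were seen in 8 of the 24 libraries and crossed the labelled groups, since DMSO C was low as well and DMSO A and B were not. Results are therefore given from all 6 libraries and, where they differ, also without MS023 B or with a coefficient in the model for the low-RRP libraries. The 9 RRP-named genes had a median log2 change of -1.82 between PRT220 and MS023, with 0 called, and of 0.07 without MS023 B.

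Called genes are those with a Benjamini-Hochberg adjusted p under 0.05 from the quasi-likelihood fit of edgeR. Between PRT220 and MS023, 4273 of 16640 genes were called (25.7%). Of these, 2515 were higher with PRT220 (15.1% of genes tested) and 1758 were lower (10.6%). A change of at least 2-fold was found for 274 genes (1.65%), 160 of them higher and 114 lower. The median log2 change over all genes tested was -0.003. Without MS023 B, 3408 genes were called (20.1%), with 1733 higher (10.2%) and 1675 lower (9.88%), and with the coefficient for low-RRP libraries 4316 were called (25.9%). In 6647 genes (39.9%), every library of one group lay above every library of the other.

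Against DMSO, PRT220 gave 4139 called genes (24.9%) and MS023 gave 375 (2.25%), 148 of them higher (0.889%) and 227 lower (1.36%). The MS023 count was 599 with the coefficient for low-RRP libraries, and it was 185 without MS023 A, 193 without MS023 B and 194 without DMSO B. These contrasts share the DMSO libraries with each other and each shares 3 libraries with the direct comparison, so their values are set side by side below. The direct comparison includes genes that PRT220 moved away from DMSO and genes that MS023 moved.

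KIT, a receptor tyrosine kinase of haematopoietic progenitors (ENSG00000157404, GRCh38 chromosome 4, 54657918 to 54740715), stood at 27.1, 29.8 and 30.8 CPM in PRT220 A, B and C. In MS023 A, B and C it stood at 7.24, 7.40 and 7.33 CPM. The groups did not overlap, and the MS023 libraries lay within the DMSO range of 5.73 to 7.40 CPM. The log2 change was 2.00 (SE 0.10, edgeR adjusted p = 8.72e-11, n = 3 per group), a 3.99-fold difference.

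IGF1, a growth factor that signals through the IGF1 receptor (ENSG00000017427, chromosome 12, 102395874 to 102481744), stood at 17.6, 21.4 and 25.7 CPM with PRT220. With MS023 it stood at 5.59, 5.78 and 4.92 CPM. All PRT220 libraries were high, with PRT220 A the lowest of them, and the MS023 libraries overlapped DMSO, at 4.39 to 5.87 CPM. The log2 change was 1.99 (SE 0.16, edgeR adjusted p = 1.71e-08).

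CYBB, the catalytic subunit of the phagocyte NADPH oxidase (ENSG00000165168, chromosome X, 37780011 to 37813461), had the largest increase among called genes of at least 5 CPM without overlap. It stood at 9.51, 11.1 and 10.2 CPM with PRT220 and at 2.32, 2.66 and 2.43 CPM with MS023. The 3 DMSO libraries, at 3.35 to 3.75 CPM, lay between the inhibitors and overlapped neither. The direct log2 change was 2.06 (SE 0.09, edgeR adjusted p = 9.12e-12). It was made of a rise of 1.51 with PRT220 and of a log2 change of -0.55 with MS023 (edgeR adjusted p = 0.00407), both against DMSO.

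The other genes among the 15 with the largest increases were GASK1B, DCANP1, GRIP1, GAPT, ABTB3, CFP, JAML, ARPIN-AP3S2, CACNA2D3, RAB27B, EDA2R and GNAI1, with log2 changes from 1.92 (GASK1B) to 1.24 (GNAI1). GRIP1, a PDZ-domain scaffold protein first described at glutamate receptors, stood at 44.0, 52.7 and 57.1 CPM with PRT220. Its MS023 libraries lay close together at 19.1, 19.3 and 19.3 CPM, and the log2 change was 1.41 (SE 0.09). CFP, the complement regulator properdin, had a mean of 18.8 ± 1.04 CPM (SD, n = 3) with PRT220 and of 7.38 ± 0.416 CPM with MS023. Neither gene's groups overlapped.

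JAML, a junctional adhesion molecule of leukocytes, was moved by both inhibitors. It stood at 24.2, 28.5 and 30.2 CPM with PRT220, at 10.7, 11.6 and 11.0 CPM with MS023 and at 6.38, 8.17 and 8.28 CPM with DMSO. The 3 groups did not overlap. The log2 change was 1.32 between the inhibitors and 0.54 for MS023 against DMSO (edgeR adjusted p = 0.0136). ARPIN-AP3S2 is a readthrough model whose counts can be shared with ARPIN and AP3S2, so its value is uncertain. DCANP1 (log2 change 1.5, edgeR adjusted p = 0.0121) missed the threshold without MS023 B and also without MS023 C, with adjusted p = 0.0523 in each case.

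**Figure D1:**
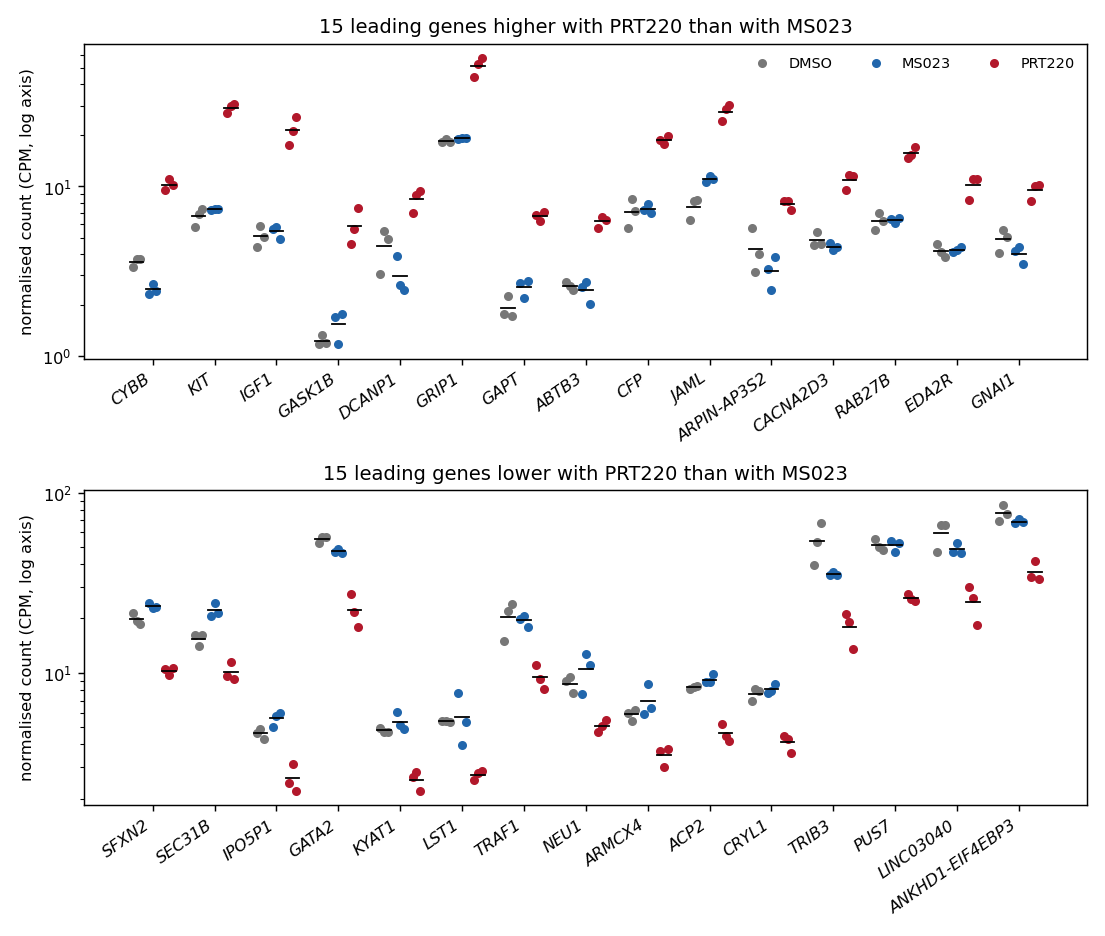
Normalised counts (CPM, log axis) of the 15 genes with the largest increases (top) and the 15 with the largest decreases (bottom) in PRT220 relative to MS023. Each point is a library (grey DMSO, blue MS023, red PRT220) and each black line the mean of 3. No red point overlaps a blue one for any of the 30 genes, which the choice of genes required, and KIT rises from 7.32 CPM with MS023 to 29.2 CPM with PRT220 on average.

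Among the genes lower with PRT220, GATA2, a transcription factor of haematopoietic stem and progenitor cells (ENSG00000179348, chromosome 3, 128479427 to 128493185), stood at 27.2, 21.7 and 17.9 CPM with PRT220. It stood at 46.9, 48.5 and 46.3 CPM with MS023 and at 52.2, 56.4 and 56.9 CPM with DMSO. PRT220 libraries were the low ones, and PRT220 A lay nearest to MS023. The log2 change was -1.09 (SE 0.12, edgeR adjusted p = 1.01e-06).

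SFXN2, a mitochondrial carrier of the sideroflexin family, had the largest decrease among called genes of at least 5 CPM without overlap, a log2 change of -1.19 (SE 0.08, edgeR adjusted p = 3.62e-09). Its PRT220 libraries stood at 10.5, 9.74 and 10.6 CPM and its MS023 libraries at 24.5, 22.8 and 23.1 CPM. PUS7, a pseudouridine synthase that modifies transfer and messenger RNA, stood at 27.5, 25.8 and 25.1 CPM with PRT220 and at 53.6, 46.9 and 52.7 CPM with MS023. MS023 left PUS7 at the DMSO level of 50.9 ± 3.92 CPM (SD, n = 3), with a log2 change of 0.01.

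SEC31B, a paralogue of a COPII vesicle coat subunit, was moved in opposite directions. It stood at 9.55, 11.4 and 9.26 CPM with PRT220, at 20.7, 24.4 and 21.4 CPM with MS023 and at 16.1, 14.1 and 16.2 CPM with DMSO. The DMSO libraries lay between the inhibitors without overlap. The log2 change against DMSO was -0.61 with PRT220 (edgeR adjusted p = 1.23e-05) and 0.52 with MS023 (adjusted p = 0.00174).

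The other 11 genes among the 15 largest decreases were IPO5P1, KYAT1, LST1, TRAF1, NEU1, ARMCX4, ACP2, CRYL1, TRIB3, LINC03040 and ANKHD1-EIF4EBP3, down to a log2 change of -0.93. NEU1 and ACP2 encode lysosomal enzymes, a sialidase and an acid phosphatase, and TRAF1 an adaptor of tumour necrosis factor receptors. IPO5P1 is a pseudogene of IPO5 and ANKHD1-EIF4EBP3 a readthrough model, so reads of near-identical or overlapping genes can enter both values. All 15 decreases remained called without MS023 B, as did 14 of the 15 increases. Against DMSO, 14 of the 15 higher and 15 of the 15 lower genes were called in PRT220, and 2 and 1 of them in MS023. Over all genes the shares called were 24.9% with PRT220 and 2.25% with MS023. The leading genes were chosen on the same PRT220 and MS023 libraries, so these counts are not independent of that choice.

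**Figure D2:**
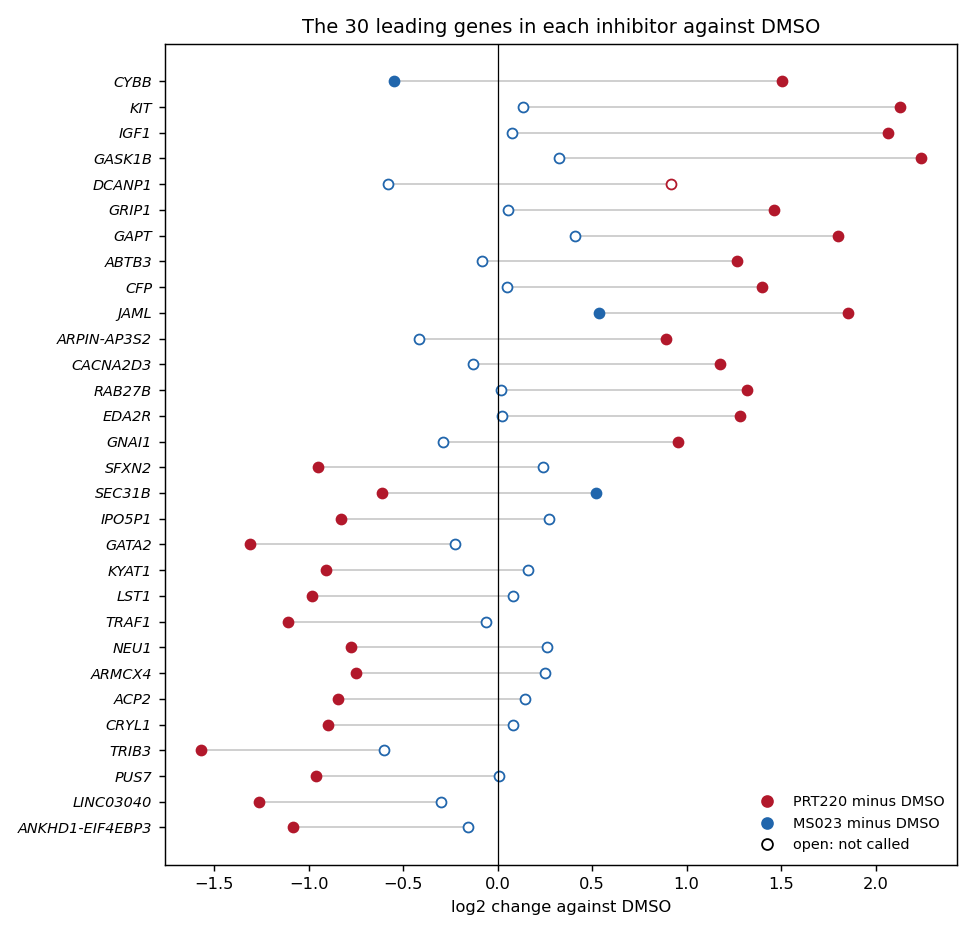
Log2 change against DMSO of the 30 leading genes, with PRT220 in red and MS023 in blue, and open circles where edgeR's adjusted p was 0.05 or above. Both contrasts use the same DMSO libraries. The blue circles are filled for CYBB (-0.55), JAML (0.54) and SEC31B (0.52).

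The inhibited enzymes were not themselves strongly altered in RNA level, and RNA gives no direct reading of arginine methylation. PRMT5 stood at 113, 115 and 107 CPM with PRT220 and at 108, 101 and 111 CPM with MS023, so the groups overlapped (log2 change 0.06, SE 0.06, edgeR adjusted p = 0.471). Of the 6 type I enzymes tested, 0 were called higher and 1 lower, where 15.1% and 10.6% of all genes were. This was PRMT3, which methylates a ribosomal protein, at 38.2, 35.6 and 36.2 CPM against 42.3, 41.2 and 45.6 CPM (log2 change -0.23, adjusted p = 0.00873).

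PRMT1 (334 ± 13.7 against 357 ± 25.3 CPM, SD, n = 3) and CARM1 (71.6 ± 2.11 against 76.6 ± 3.78 CPM) were not called with all 6 libraries, at edgeR adjusted p of 0.222 and 0.194. Without MS023 B both were, at adjusted p of 0.0495 and 0.046 with log2 changes of -0.16. The type I enzymes then gave 3 lower and 0 higher of 6, where 9.88% and 10.2% of all genes were. PRMT7, the type III enzyme, which makes monomethylarginine, had a log2 change of 0.20 (adjusted p = 0.00329) that missed the threshold without MS023 B (adjusted p = 0.0555). PRMT9, another type II enzyme, had a log2 change of -0.24 (adjusted p = 0.0194), which was lost without PRT220 A or without MS023 C (0.0554 and 0.0942).

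Of the 7 PRMT5 cofactors and adaptors, 0 were called, where 25.7% of all genes were. Without MS023 B, and also with the coefficient for low-RRP libraries, 1 was lower and 0 higher. CLNS1A and RIOK1, substrate adaptors of PRMT5, had log2 changes of 0.01 and 0.03. WDR77 had 35.1 ± 1.29 CPM with PRT220 and 41.0 ± 5.38 CPM with MS023, a log2 change of -0.22 (edgeR adjusted p = 0.0793). Its MS023 values were spread widely, and without MS023 B the log2 change was -0.33 (adjusted p = 0.0174). MTAP, the methylthioadenosine phosphorylase whose loss sensitises cells to some PRMT5 inhibitors, was expressed at 107 and 115 CPM and was not called. KDM1A, which encodes LSD1, was not called either (log2 change -0.06).

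In the cycle that supplies methyl groups, 1 of 12 genes was higher and 2 were lower, shares near the 15.1% and 10.6% over all genes. ODC1, the first enzyme of polyamine synthesis, was the higher one, at 166 against 142 CPM on average (log2 change 0.22). MTR, methionine synthase, was lower at 126 against 142 CPM (log2 change -0.17), as was AHCYL1 (-0.13). AHCYL1 lost its call without PRT220 C or without MS023 C (adjusted p = 0.0751 and 0.0661).

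Markers of monocytes and macrophages were mostly higher with PRT220: 13 of 25 tested were called higher and 1 lower, where 15.1% and 10.6% of all genes were, with a median log2 change of 0.23 against -0.003 over all genes. Without MS023 B the counts were 10 and 1. MPEG1, the macrophage pore-forming protein perforin-2, stood at 86.4, 98.3 and 99.4 CPM with PRT220 and at 43.6, 41.5 and 42.1 CPM with MS023 (log2 change 1.16, edgeR adjusted p = 1.02e-08). ITGAM, the integrin chain CD11b, stood at 6.56, 7.24 and 7.39 CPM against 3.41, 3.41 and 2.84 CPM (log2 change 1.13, adjusted p = 4.87e-05).

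For both genes the MS023 libraries were at the level of DMSO. CD84, a SLAM family receptor, had means of 40.2 and 20.3 CPM and a log2 change of 0.99. MS023 raised CD84 over DMSO as well, by 0.37 on the log2 scale (edgeR adjusted p = 0.0233). TLR4, the lipopolysaccharide receptor, had 28.2 CPM with PRT220, 18.2 with MS023 and 23.0 with DMSO, and was lower than DMSO with MS023 (log2 change -0.34, adjusted p = 0.0247). CD68, a lysosomal glycoprotein of macrophages, went the other way, at 26.3 against 36.1 CPM (log2 change -0.46, adjusted p = 0.00639). VCAN, a proteoglycan of classical monocytes, and FCGR1A, a high-affinity Fc receptor, had every PRT220 library below every MS023 library but were not called, at means of 8.02 against 13.1 CPM and 51.2 against 59.5 CPM (edgeR adjusted p = 0.0618 and 0.0641). With the coefficient for low-RRP libraries FCGR1A was called (adjusted p = 0.0436).

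Abundant markers differed less. LYZ, lysozyme, stood at 1101 ± 50.8 CPM with PRT220 and at 947 ± 49.0 CPM with MS023, a log2 change of 0.22 that missed the threshold without MS023 B (edgeR adjusted p = 0.116). CSF1R (log2 change 0.25) and IRF8 (0.13) also missed it without MS023 B, at adjusted p of 0.0714 and 0.277. S100A8 and S100A9 were called higher at low levels, with means of 1.36 and 0.721 CPM with PRT220 and of 0.604 and 0.222 CPM with MS023. CD163, a marker of mature macrophages, had a count in 1 library only, while CSF1R and FLT3, the cytokine receptors typical of this line, stood at 109 and 672 CPM with PRT220 and at 91.7 and 669 CPM with MS023. Since these are bulk samples, a change in the share of cells of a type and a change in RNA per cell cannot be told apart.

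Granule genes moved in both directions. CTSG, cathepsin G, stood at 100, 89.0 and 99.0 CPM with PRT220 and at 54.8, 52.9 and 59.0 CPM with MS023 (log2 change 0.79, edgeR adjusted p = 1.11e-06). AZU1, azurocidin, stood at 85.8, 85.6 and 82.7 CPM against 118, 136 and 116 CPM (log2 change -0.54, adjusted p = 1.60e-06). The groups did not overlap for either gene. Against DMSO, PRT220 changed both (log2 change 0.81 and -0.61), and MS023 had values of 0.02 and -0.07 that were not called. Of 12 granulocyte and granule genes, 2 were called higher and 2 lower, near the 15.1% and 10.6% over all genes. The other pair was RNASE3, whose call was lost on leaving out any 1 of the 6 libraries (adjusted p from 0.0534 to 0.132), and CSF3R (log2 change -0.28).

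On the stem and progenitor list, 5 of 12 genes were higher (KIT, IGF1, CD38, HOXA10 and MSI2) and GATA2 was lower. The list also holds a growth factor, IGF1. Over all genes 15.1% were higher and 10.6% lower. The list's median log2 change was 0.16, and 0.06 without MS023 B, where 5 were higher and 1 lower. HOXA10, a homeobox gene, stood at 99.5, 99.3 and 98.2 CPM with PRT220 and at 76.1, 75.9 and 85.6 CPM with MS023 (log2 change 0.32). Of 17 MLL-fusion target genes, 5 were higher and 2 lower, and without MS023 B 3 were higher and 2 lower, where 10.2% and 9.88% of all genes were. TCF4, an E-protein transcription factor, had means of 169, 125 and 108 CPM in PRT220, MS023 and DMSO, and both inhibitors differed from DMSO (log2 change 0.64 and 0.21). BCL2, the anti-apoptotic protein, was lower with PRT220, at 472 against 549 CPM (log2 change -0.22, edgeR adjusted p = 0.00028).

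Erythroid and megakaryocyte markers were low, and 4 of the 18 had no count in any of the 6 libraries. Of the 9 tested, 4 were called lower with PRT220 and 0 higher, where 10.6% and 15.1% of all genes were. Without MS023 B 2 were lower and 1 higher, where 9.88% and 10.2% of all genes were. In that fit KLF1 and VWF were no longer called (edgeR adjusted p = 0.0516 and 0.0526). KLF1 also missed the threshold without any other 1 library (up to 0.118), and VWF without PRT220 B or C (0.055 and 0.101). The summed level of the 9 genes was 1326 to 1491 CPM with PRT220 and 1708 to 1823 CPM with MS023. Nearly all of that sum was TFRC, the transferrin receptor, at 1372 ± 82.9 against 1698 ± 61.1 CPM (log2 change -0.31). The haemoglobin genes HBG1 and HBG2 were at 0 in all 6 libraries. T, NK and B lymphocyte markers gave 2 higher and 1 lower of 13, beside 15.1% and 10.6% over all genes. Their summed levels were 265 to 274 CPM with PRT220 and 288 to 293 CPM with MS023. Epithelial and fibroblast markers gave 1 and 0 of 7, at 742 to 848 and 823 to 864 CPM. The part of any such cells in the differences above was not tested.

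Of the p53 target genes, 23 of 32 were higher with PRT220 and 0 lower, where 15.1% and 10.6% of all genes were called. Their median log2 change was 0.36. In each PRT220 library the median of the list lay above the MS023 mean, by 0.27 (A), 0.36 (B) and 0.40 (C) on the log2 scale. Without MS023 B, 21 were higher and 0 lower. SPATA18, a mitochondrial quality control protein, had a log2 change of 1.96 at means of 0.446 and 0.110 CPM and missed the threshold without MS023 B (edgeR adjusted p = 0.0591). EDA2R, a tumour necrosis factor receptor family member, stood at 8.27, 11.1 and 11.1 CPM against 4.12, 4.23 and 4.37 CPM (log2 change 1.26, edgeR adjusted p = 2.50e-07).

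CYFIP2, a component of the actin-regulating WAVE complex, stood at 18.6, 20.3 and 21.7 CPM against 12.1, 10.7 and 12.1 CPM (log2 change 0.79). ZMAT3, an RNA-binding protein, stood at 75.7, 82.6 and 95.3 CPM against 47.9, 51 and 48.7 CPM (log2 change 0.78). BAX, the pro-apoptotic pore-forming protein, stood at 120, 114 and 119 CPM against 85.3, 83.1 and 87.3 CPM (log2 change 0.47). All of these groups were apart, and none of the 3 genes was called between MS023 and DMSO.

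CDKN1A, the cyclin-dependent kinase inhibitor p21, was different. It stood at 110, 107 and 111 CPM with PRT220, at 81.7, 80.1 and 83.8 CPM with MS023 and at 89.9, 105 and 113 CPM with DMSO. PRT220 overlapped DMSO and MS023 lay below both. The direct log2 change was 0.42 (edgeR adjusted p = 0.000295), with 0.09 for PRT220 against DMSO (adjusted p = 0.415) and -0.32 for MS023 against DMSO (adjusted p = 0.0247). TNFRSF10B, a TRAIL receptor, had the same pattern, with log2 changes of 0.05 and -0.14 against DMSO (adjusted p = 0.199 and 0.00948).

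The MS023 side of the comparison also held MYC and NF-kB genes. MYC, the proto-oncogene transcription factor, stood at 341, 318 and 314 CPM with PRT220, at 385, 379 and 365 CPM with MS023 and at 312, 322 and 301 CPM with DMSO. Only the MS023 libraries stood apart from DMSO among the inhibitor libraries, with a log2 change of 0.27 (edgeR adjusted p = 0.0309). The direct log2 change was -0.22 (adjusted p = 0.019), and without PRT220 C it missed the threshold (adjusted p = 0.0569).

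NFKB1, the p105 and p50 subunit of NF-kB, stood at 67.1, 66.9 and 65.0 CPM with PRT220 and at 53.5, 52.4 and 53.1 CPM with MS023. TNFAIP3, the inhibitory enzyme A20, stood at 65.7, 66.6 and 65.3 CPM against 53.5, 53.5 and 52.0 CPM. NFKB1 and TNFAIP3 were apart without overlap (log2 change 0.32 and 0.31), and both were lower with MS023 than with DMSO (-0.25 and -0.23, edgeR adjusted p = 0.00858 and 0.00378). PRT220 did not differ from DMSO past the threshold for either. Of 15 NF-kB and inflammatory genes, 6 were higher and 1, TRAF1, lower, where 15.1% and 10.6% of all genes were. On this list 4 were higher and 1 lower without MS023 B, where 10.2% and 9.88% of all genes were. With the coefficient for low-RRP libraries the counts were also 4 and 1. Among 22 MAPK and STAT5 feedback genes, 5 were higher and 4 lower, beside 15.1% and 10.6% over all genes. Without MS023 B, 4 were higher and 2 lower, with DUSP5 and PIM1 no longer called (edgeR adjusted p = 0.0536 and 0.0708). The phosphatase DUSP4 was higher, at 6.01 against 3.00 CPM (log2 change 1.00).

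Cholesterol synthesis genes were lower with PRT220 in 19 of the 24 tested and higher in 0, where 10.6% and 15.1% of all genes were. Their median log2 change was -0.29. These genes encode the mevalonate pathway and the later sterol steps, and are known targets of the SREBP2 transcription factor, which acts together with NF-Y at CCAAT boxes. The promoters below are shown because their genes moved together. Each is the 250 bases before the RefSeq start of the gene on GRCh38.p14, written 5′ to 3′ on the gene's strand, with CCAAT and its reverse complement ATTGG in capitals. The windows are chr5:43313413-43313662 (minus strand), chr1:155308616-155308865 (plus strand) and chr7:155297628-155297877 (plus strand).
HMGCS1: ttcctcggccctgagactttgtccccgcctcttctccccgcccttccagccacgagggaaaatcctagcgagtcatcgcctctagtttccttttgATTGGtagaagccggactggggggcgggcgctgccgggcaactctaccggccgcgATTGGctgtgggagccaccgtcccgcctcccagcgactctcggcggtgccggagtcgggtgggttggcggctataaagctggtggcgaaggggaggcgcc
FDPS: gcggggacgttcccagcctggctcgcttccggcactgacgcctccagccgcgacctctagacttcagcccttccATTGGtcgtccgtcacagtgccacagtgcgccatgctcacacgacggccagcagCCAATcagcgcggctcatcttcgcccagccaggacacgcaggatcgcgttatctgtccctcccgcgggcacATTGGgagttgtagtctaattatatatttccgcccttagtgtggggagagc
INSIG1: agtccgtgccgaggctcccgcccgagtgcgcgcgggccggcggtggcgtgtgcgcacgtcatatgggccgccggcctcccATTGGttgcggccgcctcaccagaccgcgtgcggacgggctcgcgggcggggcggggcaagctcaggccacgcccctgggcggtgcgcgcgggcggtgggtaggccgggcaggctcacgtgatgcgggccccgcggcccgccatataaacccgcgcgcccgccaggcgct
Of 18 genes of the list with a promoter in the RefSeq table, 15 had CCAAT on either strand in this window, among them 11 of the 13 that were called lower. It was also present before MVK, TM7SF2, SREBF2 and STARD4, which were not called lower. IDI1 and CYP51A1, called lower, and PMVK, not called lower, had none. Over all 27305 promoters of that table, not limited to genes tested here, the share was 33.0%. A match describes the letters only.

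HMGCS1, the cytosolic HMG-CoA synthase (ENSG00000112972, chromosome 5, 43289395 to 43313512), stood at 460, 419 and 355 CPM with PRT220 and at 617, 598 and 623 CPM with MS023 (log2 change -0.57, SE 0.08, edgeR adjusted p = 2.72e-05). FDPS, farnesyl diphosphate synthase, stood at 201, 187 and 159 CPM against 240, 254 and 241 CPM (log2 change -0.43). INSIG1, the sterol sensor that retains SREBP in the endoplasmic reticulum, stood at 757, 689 and 609 CPM against 911, 903 and 976 CPM (log2 change -0.44). In all 3 genes PRT220 A was nearest to MS023 and PRT220 C farthest, and the groups did not overlap.

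The list as a whole had the same order of libraries. Its median lay below the MS023 mean by 0.17 in PRT220 A, 0.27 in PRT220 B and 0.43 in PRT220 C on the log2 scale, while the MS023 libraries lay between -0.014 and 0.006. Summed CPM over the 24 genes was 4684 to 5658 with PRT220, 6423 to 6548 with MS023 and 6552 to 7325 with DMSO. MS023 against DMSO gave 0 called genes of the 24. Without MS023 B, 17 were called lower and 0 higher.

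Genes of the ATF4 and amino acid response were lower in 12 of 28 and higher in 0, where 10.6% and 15.1% of all genes were. Their median log2 change was -0.17. TRIB3, a pseudokinase induced by ATF4, stood at 21.2, 19.2 and 13.6 CPM with PRT220, at 34.8, 36.3 and 34.8 CPM with MS023 and at 39.4, 53.3 and 67.8 CPM with DMSO. The inhibitor groups were apart (log2 change -0.97, edgeR adjusted p = 0.000819), and MS023 was not called against DMSO (log2 change -0.60, adjusted p = 0.11), where DMSO was widely spread. PCK2, the mitochondrial phosphoenolpyruvate carboxykinase, stood at 19.0, 16.6 and 15.1 CPM against 30.8, 29.9 and 31.6 CPM (log2 change -0.86). DDIT4, an inhibitor of mTORC1 signalling, stood at 29.2, 26.2 and 22.4 CPM against 45.4, 48.6 and 47.6 CPM (log2 change -0.86).

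Serine synthesis enzymes on the same list, PSAT1 and PHGDH, had log2 changes of -0.44 and -0.39. DDIT3, the transcription factor CHOP, had 7.82 against 11.6 CPM (log2 change -0.56, edgeR adjusted p = 0.0137) and missed the threshold without PRT220 C or without MS023 B (0.0748 and 0.0629). Among 18 endoplasmic reticulum chaperones and related genes, 5 were lower and 1 higher, where 10.6% and 15.1% of all genes were. HSPA5, the chaperone BiP, stood at 499, 459 and 454 CPM against 556, 531 and 590 CPM (log2 change -0.25).

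**Figure D3:**
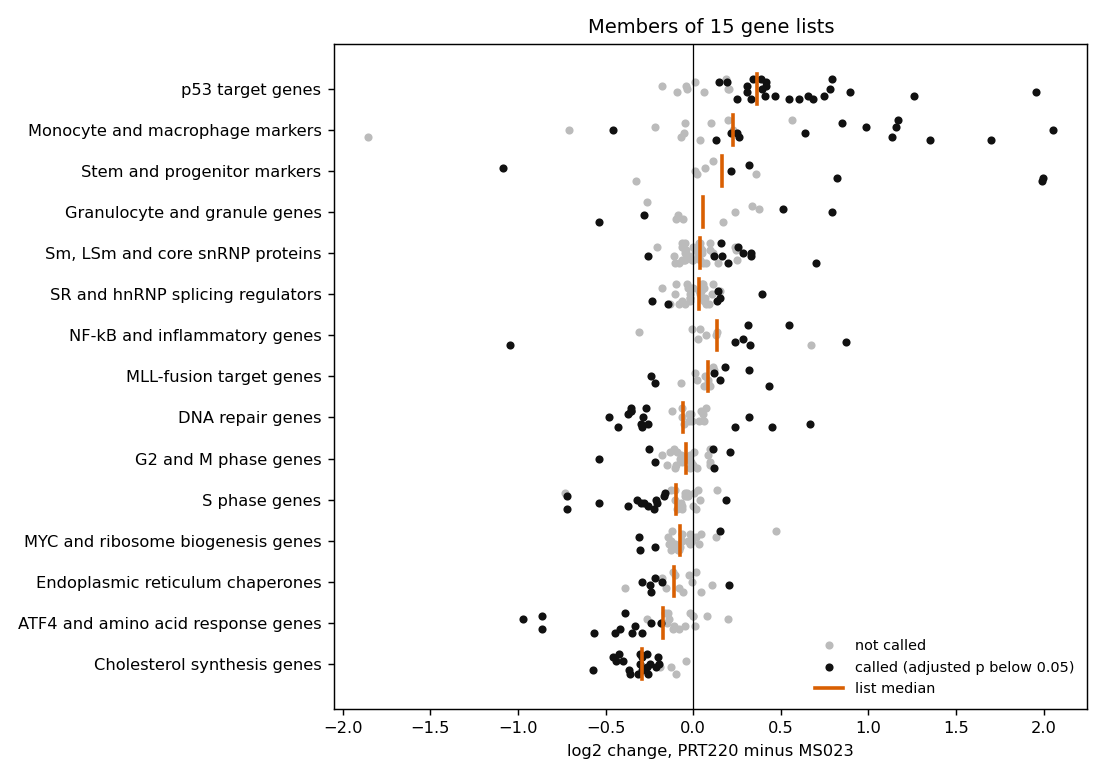
Log2 change (PRT220 minus MS023) of every tested member of 15 gene lists, black where called and grey where not, with the list median in orange. Among these 15 lists the median is highest for p53 target genes (0.36) and lowest for cholesterol synthesis genes (-0.29). The median over all genes tested was -0.003. Of the lists not shown, erythroid and megakaryocyte markers (-0.34) and RRP-named genes (-1.82) lay lower.

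**Figure D4:**
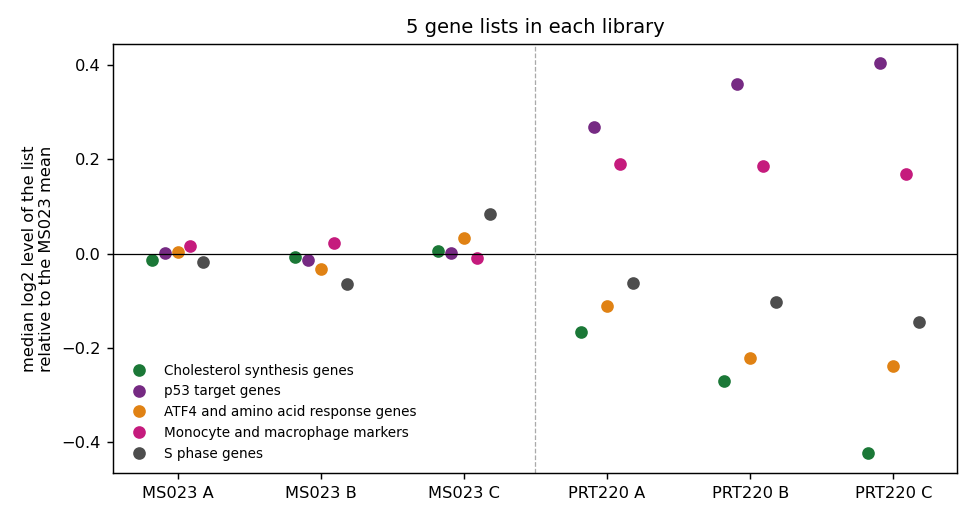
Median log2 level of 5 gene lists in each of the 6 libraries, relative to the mean of the MS023 libraries, with a pseudocount of 0.5 CPM. PRT220 A lies nearer to the MS023 libraries than PRT220 C for the p53 (0.27 and 0.40) and cholesterol lists (-0.17 and -0.43), and for the monocyte list the 3 lie together (0.17 to 0.19).

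PRT220 A was the library nearest to the MS023 mean for 2259 of 4121 called genes without overlap (54.8%) and for 19 of the 30 leading genes. PRT220 B and C were nearest for 24.5% and 20.7% of the 4121. Among the MS023 libraries none stood out in this way, with 1236 (A), 1293 (B) and 1592 (C) of these genes nearest to the PRT220 mean. PRT220 A also had the most counts of the 6, and the part of depth in this was not tested.

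S phase genes were lower in 13 of 34 and higher in 1, where 10.6% and 15.1% of all genes were. Their median log2 change was -0.10. POLA1, the catalytic chain of the polymerase that primes DNA replication, stood at 68.9, 62.1 and 58.9 CPM with PRT220 and at 109, 101 and 103 CPM with MS023 (log2 change -0.72, edgeR adjusted p = 9.56e-09). GINS4, a subunit of the replicative helicase complex, stood at 47.4, 47.3 and 41.4 CPM against 75.1, 70.8 and 78.7 CPM (log2 change -0.72). RRM2, the ribonucleotide reductase subunit, stood at 295, 274 and 249 CPM against 395, 386 and 408 CPM (log2 change -0.54). The groups were apart in all 3, and MS023 did not differ from DMSO past the threshold in any of them.

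UHRF1, also on the S phase list, had 242 ± 8.14 CPM with PRT220 and 402 ± 224 CPM with MS023, and its difference was not called (log2 change -0.73, edgeR adjusted p = 0.169). It followed the RRP genes, at 264, 660 and 281 CPM in MS023 A, B and C and at 663, 596 and 249 CPM in DMSO A, B and C, and without MS023 B the log2 change was -0.20 (adjusted p = 0.776). G2 and M phase genes gave 3 higher and 3 lower of 28 with all libraries, and 0 higher and 6 lower without MS023 B. The shares over all genes were 15.1% and 10.6% with all libraries, and 10.2% and 9.88% without MS023 B. TOP2A, the DNA topoisomerase, was lower in either fit, at 542, 509 and 481 CPM against 756, 700 and 767 CPM (log2 change -0.54, adjusted p = 7.33e-07).

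DNA repair genes were lower in 11 of 28 and higher in 4, where 10.6% and 15.1% of all genes were. Of the 9 genes on the list named FANC, which act in the repair of crosslinks between DNA strands, 8 were lower: FANCA, FANCB, FANCD2, FANCE, FANCG, FANCI, FANCL and FANCM. FANCD2, its central ubiquitinated protein, stood at 73.4, 74.8 and 70.1 CPM with PRT220 and at 99.6, 104 and 101 CPM with MS023 (log2 change -0.48, edgeR adjusted p = 2.73e-07). RAD52, a DNA annealing protein, was higher, at 25.7, 27.1 and 28.0 CPM against 17.3, 17.0 and 16.5 CPM (log2 change 0.67, adjusted p = 4.47e-09). RAD51C, also on the list, was higher as well (log2 change 0.45). FANCC was not called, at 29.4 against 28.2 CPM, nor were BRCA2 and PALB2, which act in the same pathway (log2 change 0.06 and 0.04). The FANC genes were grouped after their values were seen.

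Genes of the spliceosome changed little in level. Of 45 Sm, LSm and core small ribonucleoprotein genes, 9 were higher and 1 lower, where 15.1% and 10.6% of all genes were. Their median log2 change was 0.04, and without MS023 B 6 were higher and 2 lower. PRPF3, a protein of the U4/U6 particle, was the exception in size, at 79.3, 84.0 and 91.2 CPM against 52.1, 53.6 and 50.7 CPM (log2 change 0.70, edgeR adjusted p = 7.19e-09). SNRPD3, which encodes an Sm protein that PRMT5 methylates, had 165 against 131 CPM (log2 change 0.33). Of 36 SR and hnRNP splicing regulators, 4 were higher and 2 lower, and without MS023 B 2 were higher and 3 lower, shares at or below those over all genes (15.1% and 10.6% with all libraries). SRSF8 was among the higher ones (log2 change 0.39).

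Interferon-stimulated genes were higher in 8 of 39 and lower in 2, and without MS023 B in 5 and 2, near the shares over all genes. TRIM22, an antiviral ubiquitin ligase, was higher at 147, 163 and 175 CPM against 86.9, 85.9 and 84.6 CPM (log2 change 0.91, edgeR adjusted p = 5.93e-10). The lower ones were IFIT2 and IFIT3, antiviral RNA-binding proteins, at low means of 0.438 against 1.31 CPM and 0.623 against 1.2 CPM (log2 change -1.58 and -0.94). IFIT2 missed the threshold without any 1 of PRT220 A, B, C or MS023 A (edgeR adjusted p from 0.0558 to 0.07), and IFIT3 without any 1 library other than PRT220 A (0.0755 to 0.139). GBP1, an interferon-induced GTPase, was called higher from 0.0217, 0.117 and 0.0241 CPM with PRT220 and 0 in every MS023 library, and was not called without PRT220 B (adjusted p = 0.184) or without any 1 MS023 library (0.078 to 0.0801).

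Antigen presentation genes were higher in 4 of 18 and lower in 0, where 15.1% and 10.6% of all genes were. Their median log2 change was 0.016. Without MS023 B, 3 were higher and 0 lower, where 10.2% and 9.88% of all genes were, and the median was -0.038. With the coefficient for low-RRP libraries 4 were higher and 1 lower, and the median was -0.042. HLA-DMB was called at very low means of 0.228 against 0.0234 CPM. PSMB8 was called at 3.78 against 2.41 CPM (edgeR adjusted p = 0.048), and missed the threshold without MS023 B (0.0738). NLRC5, the transactivator of MHC class I genes, had 86.2 against 60.4 CPM (log2 change 0.51). CIITA, the transactivator of class II genes, was above DMSO with both inhibitors, at means of 60.1, 50.4 and 38.4 CPM in PRT220, MS023 and DMSO, and its direct call was lost without PRT220 C, MS023 A or MS023 C (adjusted p = 0.163, 0.0541 and 0.0699). Of 26 MYC and ribosome biogenesis genes, 1 was higher and 3 lower, beside 15.1% and 10.6% over all genes. Of 13 mitochondrial transcripts, 0 were called, where 25.7% of all genes were.

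Splicing was examined as the use of each annotated transcript within its gene. Usage differed between PRT220 and MS023 in 1683 of 11425 genes (14.7%), by limma's diffSplice, in which transcript p-values are combined per gene by Simes' method and adjusted over genes. Of 74228 transcripts, 1457 were called higher with PRT220 relative to the other transcripts of their gene (1.96%) and 1375 lower (1.85%). This balance turned without MS023 B, to 969 higher and 1232 lower of 78211, and with the coefficient for low-RRP libraries, to 1571 and 1659. Transcripts annotated as retained introns were called higher in 324 and lower in 98 of 16851 (1.92% and 0.582%), and protein-coding transcripts in 912 and 1097 of 39962 (2.28% and 2.75%). Transcripts annotated for nonsense-mediated decay were called higher in 117 and lower in 104 of 7247, with 76 and 95 of 7710 without MS023 B and 124 and 129 with the coefficient. Without MS023 B, the counts for retained introns were 258 and 63 of 17566, and with the coefficient for low-RRP libraries 403 and 97.

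The share of all paired counts on retained-intron transcripts did not separate the groups when all 6 libraries were taken. It was 5.21%, 5.47% and 5.82% in PRT220 A, B and C and 5.16%, 5.79% and 4.96% in MS023 A, B and C, a difference of 0.196 percentage points (two-sided exact permutation test, p = 0.5). MS023 B was the high library of its group, and without it the groups did not overlap. The difference was then 0.441 points (two-sided exact permutation test, p = 0.2, which is not the smallest value possible with 3 against 2). For nonsense-mediated decay transcripts the shares were 2.54%, 2.51% and 2.55% against 2.45%, 2.49% and 2.44%. The groups did not overlap there, and p = 0.1 is the smallest value the exact test can give with 3 against 3.

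MDM4, which encodes an inhibitor of p53, changed in splicing and not in level. Exon 6 of the full-length transcript MDM4-203 (chr1:204537430-204537497, plus strand) is 68 bases long, which is not a multiple of 3, so that its loss shifts the reading frame. It is shown in capitals with 20 flanking exon bases, followed by the junction of MDM4-205, which lacks it, with the bases after the junction in capitals. These and the sequences below were taken from GENCODE 29 transcripts on GRCh38.
MDM4-203, exon 6: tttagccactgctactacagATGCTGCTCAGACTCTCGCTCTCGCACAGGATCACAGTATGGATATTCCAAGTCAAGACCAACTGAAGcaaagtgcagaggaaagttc
MDM4-205, junction: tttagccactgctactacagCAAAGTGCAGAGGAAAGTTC
MDM4-205 held 28.9%, 28.8% and 35.4% of the gene's counts in PRT220 A, B and C and 14.3%, 16.9% and 13.9% in MS023 A, B and C. MDM4-203 held 57.5%, 55.5% and 46.9% against 69.0%, 64.7% and 71.1%. The groups did not overlap in either transcript, and PRT220 C had the largest share without the exon.

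The difference in MDM4-205 was 16.0 percentage points, and the gene was called for usage (limma diffSplice adjusted p = 0.00815, and 0.02 without MS023 B). The DMSO mean of MDM4-205 was 11.6% ± 1.5 (SD, n = 3). Gene-level MDM4 was 349 ± 9.46 CPM with PRT220 and 349 ± 22.2 CPM with MS023 (edgeR adjusted p = 0.987).

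PAXX and NT5C had more retained introns with PRT220. PAXX is a factor of DNA end joining, and NT5C a cytosolic nucleotidase. The retained introns are short and rich in G and C, and are shown in capitals with 20 bases of exon on each side. All 4 begin with GT and end with AG. The PAXX introns lie on the plus strand at chr9:136992701-136992924 (224 bases, 64.7% G and C) and chr9:136992975-136993052 (78 bases, 66.7%). The NT5C introns lie on the minus strand at chr17:75131282-75131533 (252 bases, 73.4%) and chr17:75131106-75131180 (75 bases, 73.3%).
PAXX, intron after exon 2: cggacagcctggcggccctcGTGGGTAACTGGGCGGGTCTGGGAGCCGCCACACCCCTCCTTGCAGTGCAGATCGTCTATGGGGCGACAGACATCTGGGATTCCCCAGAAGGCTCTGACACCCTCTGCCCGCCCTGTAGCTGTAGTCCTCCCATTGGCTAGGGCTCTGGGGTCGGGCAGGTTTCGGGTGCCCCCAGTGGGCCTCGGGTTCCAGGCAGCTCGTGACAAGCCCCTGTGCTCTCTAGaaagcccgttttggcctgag
PAXX, intron after exon 3: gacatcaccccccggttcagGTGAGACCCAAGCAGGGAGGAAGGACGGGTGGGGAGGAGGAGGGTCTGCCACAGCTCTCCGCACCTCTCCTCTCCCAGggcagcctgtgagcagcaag
NT5C, intron after exon 1: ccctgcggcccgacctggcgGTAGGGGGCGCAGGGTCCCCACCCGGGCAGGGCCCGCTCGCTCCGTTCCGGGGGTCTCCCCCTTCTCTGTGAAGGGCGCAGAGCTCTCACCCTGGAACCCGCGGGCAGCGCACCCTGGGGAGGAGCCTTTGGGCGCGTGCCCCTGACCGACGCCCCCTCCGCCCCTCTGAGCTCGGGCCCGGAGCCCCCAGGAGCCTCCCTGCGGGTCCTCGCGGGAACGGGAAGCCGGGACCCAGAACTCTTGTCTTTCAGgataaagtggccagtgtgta
NT5C, intron after exon 2: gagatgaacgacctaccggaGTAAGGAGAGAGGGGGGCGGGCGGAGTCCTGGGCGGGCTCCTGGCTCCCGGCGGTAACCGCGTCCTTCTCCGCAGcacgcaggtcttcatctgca
PAXX-208, which holds the PAXX introns, took 74.5%, 77.8% and 72.5% of the gene's counts with PRT220 and 44.4%, 41.9% and 36.9% with MS023. The spliced PAXX-201 took 11.8%, 8.87% and 10.3% against 43.6%, 45.1% and 44.0%. PRT220 libraries were far from MS023 on both transcripts, and MS023 was close to DMSO, where PAXX-201 took 41.4% ± 3.20 (SD, n = 3).

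The PAXX gene was called for usage (limma diffSplice adjusted p = 1.45e-12) and was higher in total, at 19.2 against 13.2 CPM (log2 change 0.54, edgeR adjusted p = 0.000411). For NT5C, the transcript with the introns, NT5C-213, took 42.4%, 47.7% and 46.2% against 14.9%, 16.1% and 18.2%. The coding NT5C-201 took 28.7%, 23.1% and 21.3% against 59.2%, 64.2% and 56.2% (diffSplice adjusted p = 1.19e-10). Its groups were also apart, and NT5C was lower in total, at 13.2 against 15.7 CPM (log2 change -0.25, edgeR adjusted p = 0.0392).

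**Figure D5:**
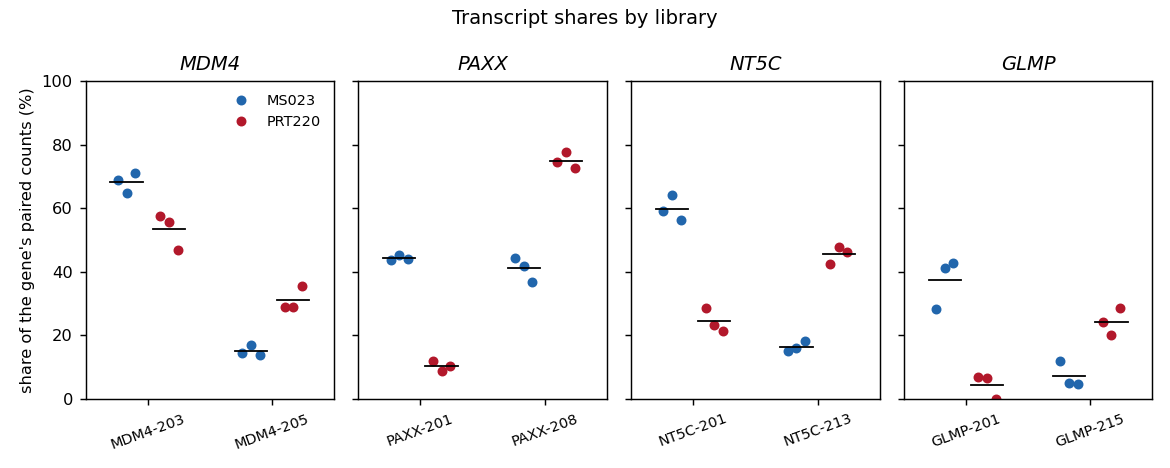
Share of each gene's paired counts (percent) on 2 transcripts of MDM4, PAXX, NT5C and GLMP, by library (blue MS023, red PRT220), with the mean of 3 as a black line. In each panel the left transcript falls and the right one gains with PRT220: MDM4-205 averages 15.0% with MS023 and 31.0% with PRT220, and PAXX-208 41.1% and 74.9%.

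Other genes with large shifts were BTRC, RASA4B, ATXN1, TUT1, GLMP, UBR3 and PIGW. In GLMP, which encodes a lysosomal membrane protein, GLMP-201 fell to 6.89%, 6.40% and 0% with PRT220 from 28.2%, 41.3% and 42.6% with MS023 (diffSplice adjusted p = 0.000136). In BTRC, a subunit of a ubiquitin ligase, BTRC-204 took 60.8%, 66.7% and 67.2% against 21.2%, 30.2% and 8.48% (adjusted p = 0.00734). PIGW differed through MS023 instead: PIGW-204 had 20.5% with PRT220, 51.5% with MS023 and 15.6% with DMSO on average. Between transcripts that share most of their sequence, such shares rest on few distinguishing reads.

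Some of these shifts rested on single libraries. UBR3-203 was listed at 0% in MS023 B and at 72.5% and 70.0% in MS023 A and C, and without MS023 B UBR3 was not called (diffSplice adjusted p = 0.578, against 2.22e-07 with it). TUT1 also missed the threshold without MS023 B (0.0854). RASA4B has a near-identical paralogue in RASA4, so its transcript shares are uncertain.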

How the data were processed

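The deposited gene and transcript tables hold estimated counts, not scaled by the authors. Per the submitters' processing notes, the tools included DESeq2 1.28.1, Salmon 1.2.1 and STAR 2.7.3a, with R 4.0.0 and build GRCh38, and the role of each is not given in the sources used here. The counts were rounded. Genes were filtered with filterByExpr, scaled by TMM and fitted with edgeR 4.0.16 (quasi-likelihood, Benjamini-Hochberg adjustment, R 4.3.3) over all 24 libraries with a coefficient per group, and 16640 of 38048 genes were tested. CPM values are counts per 1000000 after TMM scaling, and standard errors are the log2 change divided by the square root of F. Transcript usage was tested with voom and diffSplice in limma 3.58.1 on 74228 transcripts. Transcript names came from GENCODE 29, which paired 167049 of 178398 transcripts and at least 96.6% of the counts. Both procedures were tested on simulated data.

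Alternatives were other size factors, DESeq2 1.42.0, no filter, a block for the replicate letter, a coefficient for libraries with RRP9 under 5 CPM, fits on fewer libraries, and each library left out. The comparison and the gene lists were chosen with earlier results of these data known. Genes named were, for each direction, the 15 called genes of at least 5 CPM with the largest change and no overlap between groups, up to 4 called members per list, a preset group of genes, and for usage the 10 largest shifts in genes of at least 10 CPM, of which 1 is not reported here. Further list members were named after their values were seen, mainly those that MS023 moved or that lost their call on leaving out a library. Nothing in the labels says that replicates were separate cultures, and p-values then reflect the variation among these libraries only, which may be technical. No 2 libraries of a group were identical. Reads were unstranded, so a gene and an antisense or overlapping gene cannot be told apart. Levels are not scaled by gene length and are compared between libraries only.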

Additional observations from a re-analysis of the deposited data

Results flagged for a closer look

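The series also holds PRT220 and MS023 each combined with GSK-LSD1, an LSD1 inhibitor, and the PRT220 against MS023 difference was computed there after the data were seen. The PRT220 combination was 3 nM PRT220 with 10 nM GSK-LSD1 for 3 days. The labels gave no dose or time for the MS023 combination, so enzyme and exposure cannot be told apart there either. For 34 of 16640 genes the difference with GSK-LSD1 departed from that without it (edgeR interaction term, adjusted p under 0.05), and 3 of these are genes described above. CYBB had a log2 difference of 2.06 alone and of 1.25 with GSK-LSD1, smaller by 0.807 (adjusted p = 0.00841). Its means with GSK-LSD1 were 42.7 ± 2.73 CPM in the PRT220 arm and 18.0 ± 1.29 CPM in the MS023 arm (SD, n = 3 each). KIT had 2.00 alone and 1.04 with GSK-LSD1, smaller by 0.957 (adjusted p = 0.00841), with means of 16.8 ± 1.79 and 8.19 ± 0.322 CPM. IGF1 had 1.99 alone and 0.70 with GSK-LSD1, smaller by 1.286 (adjusted p = 0.011), with means of 217 ± 19.8 and 133 ± 7.52 CPM. In all 3 genes PRT220 remained above MS023 in the presence of GSK-LSD1. With a coefficient for the low-RRP libraries the 3 departures were 0.824, 0.948 and 1.282 (adjusted p = 0.0123, 0.0123 and 0.016). With 3 libraries per group, single libraries were not tested for outlying values.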

How the results depend on the processing

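Over 13 alternatives the direct comparison called 2964 to 4483 genes (3243 to 3906 with 1 library left out), and 188 to 289 genes at 2-fold or more. Transcript usage was called in 1145 to 1886 genes. The count for MS023 against DMSO, 375, moved most: it was 599 with the coefficient for low-RRP libraries, 630 with DESeq2, and from 185 to 328 with 1 library left out (185 without MS023 A, 193 without MS023 B, 194 without DMSO B). The cause was not tested. Among the 133 genes chosen by the naming rules, 99 kept the same gene-level side of the threshold for PRT220 against MS023 in every alternative run. Calls of single genes against DMSO were not put through the alternatives. Usage results of single genes, and list members named after their values were seen, were not among these 133. Of their 1726 alternative values, 123 missed a threshold passed with all libraries, and 6 passed one newly. Another sign was found in 21 values of 5 results (PRMT5, CLNS1A, RIOK1, MDM4 and RRP1B), 0 of which were called with all libraries. The difference in retained-intron share ranged from 0.0227 to 0.441 percentage points with 1 library left out.

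The replicate letters did not pair the samples: deviations of same-letter libraries correlated at 0.006 (A), -0.061 (B) and -0.057 (C). With the letter as a block, 4092 genes were called between PRT220 and MS023 (2441 higher, 1651 lower), 259 of them at least 2-fold, with 3945 for PRT220 and 294 for MS023 against DMSO and 1612 genes for usage.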
